A study of Rattus norvegicus with 325 samples.

Results

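The tibialis anterior, the fast-fibred muscle at the front of the shin that lifts the foot, was compared between male Sprague Dawley rats of 18 months and of 6 months. The members were chosen by title: the libraries whose labels name the tibialis and an age of 18 months (12) or 6 months (12), which is 24 libraries beside 301 others in the series. The series measured total RNA in 4 hind limb and breathing muscles (gastrocnemius, soleus, tibialis anterior and diaphragm) at 7 ages from 6 to 27 months. The labels name no treatment or genotype, and the rats of both groups share sex and strain and differ in age alone. The study counts each library of a muscle as 1 animal, and all animals of an age were taken on a single day, so that age and day of collection cannot be told apart. The levels are bulk measurements, in which fewer cells of a type and less RNA per cell cannot be told apart.

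Skeletal muscle fibres are held in their adult state by their motor nerve. Under the nerve terminal the fibre keeps a dense patch of acetylcholine receptors, built from alpha, beta, delta and epsilon subunits and clustered by the kinase Musk, while nuclei elsewhere along the fibre keep those genes silent. A fibre that loses its nerve switches the receptor genes on along its whole length, brings back the fetal gamma subunit in place of epsilon, and raises the myogenic factor Myog, the transcription factor Runx1 and the adhesion molecule Ncam1. Loss of mass and of motor units in rat hind limb muscle is best known from the last months of life, and 18 months lies well before that.

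Depth was alike in the groups, 28128959 to 66121880 counts per library at 6 months and 28075100 to 49476996 at 18 months. The fast myosin Myh4 was high, as in a fast muscle, at 66585 to 85760 CPM (counts scaled to a common library size) at 6 months. At 18 months it was at 60239 to 79185 CPM. Its level was not compared with other muscles, so it cannot tell tibialis anterior from another fast muscle such as gastrocnemius. The 18-month libraries stood apart in 3 ways that touch results given further on. First, on an axis of differences between libraries of one age, taken from the gastrocnemius libraries, the 6-month libraries scored -0.15 to 0.65, while 7 of the 12 libraries of 18 months scored -1.30 or lower, down to -3.15, and libraries of 27 months reached -3.11. Second, all 12 libraries of 18 months held transcripts of liver. Counts of Alb, serum albumin, summed to 11 at 6 months and to 15406 at 18 months, from 0.270 CPM in replicate 7 to 174 CPM in replicate 4. Last, replicate 11 at 18 months had 255 CPM of Cd74, the invariant chain of MHC class II, against 49.8 to 114 in the other 11, and 30.0 CPM of the B-cell chemokine Cxcl13 against 0.155 to 1.17. Numbers of calls are therefore also given without the 7 libraries of low axis score (5 of 18 months kept), without the 8 with Alb over 10 CPM (4 kept), or without replicate 11. These subsets also hold fewer libraries, which lowers the number of calls by itself.

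**Figure D1:**
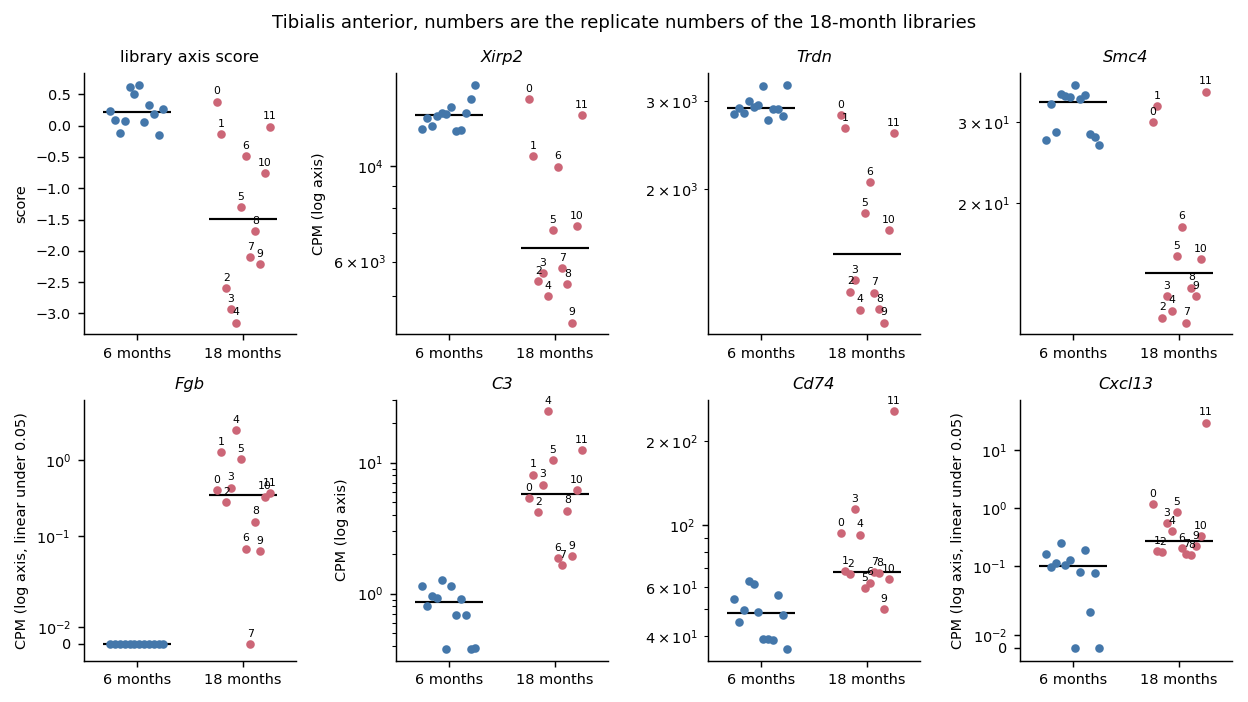
Each panel gives 1 measure (vertical axis, the axis score or CPM) in the 12 libraries of 6 months and the 12 of 18 months, with the replicate number beside each point of 18 months. Xirp2, Trdn and Smc4 are low where the axis score is low and reach 14305, 2810 and 35.1 CPM in the other libraries, Fgb and C3 are highest in replicate 4, and Cd74 and Cxcl13 in replicate 11.

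Of 11754 genes tested, 641 (5.45%) differed at 18 months by an adjusted p under 0.05 (limma-voom, Benjamini-Hochberg) and by more than 1.5-fold. Rises outnumbered falls, with 483 genes higher (4.11%) and 158 lower (1.34%), and they were larger: 222 rises but 15 falls were over 2-fold, and 58 rises but 0 falls over 4-fold. The excess of rises depends on the threshold: 91 genes were higher and 97 lower with a Bonferroni adjustment, and 2068 and 2076 with no fold threshold. The change of the middle gene was 0.03 on the log2 scale. Many of the risen genes were weakly expressed, 259 of 483 having a mean of 1 CPM or less against 38 of 158 of the fallen genes. All 12 libraries of 18 months lay above all 12 of 6 months in 109 genes (0.927% of those tested), of which 63 passed as higher, and below them in 168 genes (1.43%), of which 27 passed as lower. Without the 7 libraries of low axis score, 290 of the 483 rises and 29 of the 158 falls still passed. Without those rich in Alb, 153 and 73 did. The 483 risen genes had a median log2 change of 1.04 and 0.87 in these subsets in place of 0.93, while the median of the 158 fallen genes went from -0.71 to -0.39 without the libraries of low axis score.

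In tibialis anterior, 4 genes of the nerve-muscle contact rose, 3 receptor subunits and Musk. Chrnd, the delta subunit of the receptor, was at 5.01 to 6.60 CPM at 6 months (median 5.81) and at 12.2 to 39.5 at 18 months (median 19.4). No library of 18 months reached down to the 6-month range, and the log2 change was 1.70 ± 0.30 (SE, n = 12 per age, adjusted p = 5.29e-06). Chrna1, the alpha subunit that binds acetylcholine, went from 8.70 to 15.1 CPM (median 11.9) to 12.5 to 105 CPM (median 32.4), with 11 of 12 libraries above the 6-month range and a log2 change of 1.53 ± 0.33 (adjusted p = 0.000175). Chrng, the fetal gamma subunit, was almost silent at 6 months, with 89 counts over all 12 libraries (0 to 0.338 CPM). It had 983 counts at 18 months (0.695 to 6.40 CPM), again without overlap, for a log2 change of 3.37 ± 1.11 (adjusted p = 0.0128). Musk, the kinase that clusters the receptor, had 1.99 to 3.49 CPM at 6 months (median 2.85) and 3.62 to 10.2 at 18 months (median 5.44), a log2 change of 1.03 ± 0.34 (adjusted p = 0.0127) with no overlap.

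The epsilon and beta subunits of the adult receptor did not pass. Chrne, which replaces gamma in the adult receptor, gave a log2 difference of -0.18 ± 0.17 (adjusted p = 0.427). Chrnb1, the beta subunit, differed by 0.27 ± 0.08 (adjusted p = 0.00522), which is under 1.5-fold. Of 22 tested genes of the receptor and the junction, 4 rose and 0 fell by limma-voom, with a median log2 change of 0.09 over the list against 0.03 over all genes. At an unadjusted p under 0.05 there were 10 of the 22, of which 7 were higher, a share near the 43.8% of all genes tested. Those 4 are the genes named above, and the other 18 did not pass. edgeR and DESeq2 each called 5 higher and 0 lower, the fifth being the neuregulin receptor Erbb2, named after its values were seen (0.74 in limma-voom, adjusted p = 0.17).

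To show what the 4 risen junction genes have upstream, the 250 bases before their annotated start are printed here from RefSeq (build GRCr8, a later assembly than the one the counts were made on), 5′ to 3′ on the gene's strand. Capitals mark the E-box forms CAGCTG, which reads the same on both strands, and CAGGTG, which reads CACCTG on the other strand; E-boxes are the sites that myogenic factors such as Myog bind. Chrnd lies at chr9:95310066-95310315 (plus strand), Chrng at chr9:95325734-95325983 (plus strand), Chrna1 at chr3:78877354-78877603 (minus strand) and Musk at chr5:77853486-77853735 (plus strand).
Chrnd: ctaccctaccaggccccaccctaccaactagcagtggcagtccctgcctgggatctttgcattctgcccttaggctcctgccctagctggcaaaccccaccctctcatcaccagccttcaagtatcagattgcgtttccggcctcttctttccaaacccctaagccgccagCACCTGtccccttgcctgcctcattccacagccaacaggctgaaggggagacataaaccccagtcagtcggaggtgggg
Chrng: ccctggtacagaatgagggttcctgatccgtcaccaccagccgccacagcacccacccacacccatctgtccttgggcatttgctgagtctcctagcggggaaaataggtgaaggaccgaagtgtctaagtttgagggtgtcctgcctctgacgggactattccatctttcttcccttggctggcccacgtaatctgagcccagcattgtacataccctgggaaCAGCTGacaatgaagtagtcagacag
Chrna1: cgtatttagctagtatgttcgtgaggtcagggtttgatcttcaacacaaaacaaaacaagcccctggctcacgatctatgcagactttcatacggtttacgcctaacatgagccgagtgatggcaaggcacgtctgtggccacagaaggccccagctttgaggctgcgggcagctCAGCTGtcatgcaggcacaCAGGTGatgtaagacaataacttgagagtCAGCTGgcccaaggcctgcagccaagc
Musk: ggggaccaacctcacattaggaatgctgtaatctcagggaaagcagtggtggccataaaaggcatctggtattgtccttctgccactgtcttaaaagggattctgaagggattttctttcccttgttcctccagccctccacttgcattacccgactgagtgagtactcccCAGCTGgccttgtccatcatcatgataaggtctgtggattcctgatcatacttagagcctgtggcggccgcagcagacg

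Each of these 4 windows held at least 1 of the 2 forms. Chrna1 held 3, CAGCTG at 75 to 70 and 27 to 22 bases before the start and CAGGTG at 56 to 51. In Chrnd a single CAGGTG began 79 bases before the start, in Musk a CAGCTG at the same distance, and in Chrng a CAGCTG at 26 bases. Among 33469 promoters of the same length, 12.0% held CAGCTG, 15.9% CAGGTG and 25.8% either, so a match alone is common. The windows of Runx1, Myog, Cdkn1a, Gadd45a, Kcnn3 and Tmem158, which rose too, held neither form. A match is a run of letters and does not show that a factor binds there.

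Genes known to rise when a fibre loses its nerve made up a second group, with 10 of 26 tested members higher and 0 lower by limma-voom (list median 0.32). At an unadjusted p under 0.05 there were 13 of the 26, of which 12 were higher. Of all genes tested 43.8% were under it, 2703 of 5146 of them higher. Both edgeR and DESeq2 called 11 list members higher and 0 lower. Runx1, a transcription factor that preserves denervated fibres, had 6.48 to 11.8 CPM at 6 months (median 7.77) and 16.4 to 70.4 at 18 months (median 39.2). The ages did not overlap, and the log2 change was 2.07 ± 0.28 (adjusted p = 1.99e-08). Myog, the myogenic factor that drives receptor genes, went from 7.27 to 13.4 CPM (median 8.60) to 10.01 to 45.8 CPM (median 25.7), with 11 of 12 libraries above the 6-month range (log2 change 1.44 ± 0.23, adjusted p = 1.18e-06). Its relative Myod1 had 62.0 to 132 CPM at 6 months and 53.7 to 155 at 18 months, a log2 difference of -0.07 ± 0.15 (adjusted p = 0.756).

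Cdkn1a, the p21 inhibitor of the cell cycle and a p53 target, had 5.80 to 26.8 CPM (median 16.6) and then 29.9 to 122 CPM (median 47.8), without overlap (log2 change 1.82 ± 0.32, adjusted p = 6.55e-06). Ncam1, the adhesion molecule that spreads over denervated fibres, rose by 0.85 ± 0.23 on the log2 scale (13.6 to 21.9 CPM against 22.1 to 59.9, adjusted p = 0.00256). Other risen members were Sln, the small inhibitor of the calcium pump (2.72), Tmem158 (2.07), the stretch-response gene Ankrd1 (1.34), the growth arrest gene Gadd45a (1.31) and Kcnn3, a calcium-activated potassium channel (0.61). Sets of sarcomere genes of the embryo showed a smaller share, 3 of 12: cardiac actin Actc1 (log2 change 1.59), Mybph (1.02) and the atrial light chain Myl4 (1.00) rose, while embryonic myosin Myh3 (0.28, adjusted p = 0.554) and perinatal myosin Myh8 (0.11, adjusted p = 0.632) did not pass.

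**Figure D2:**
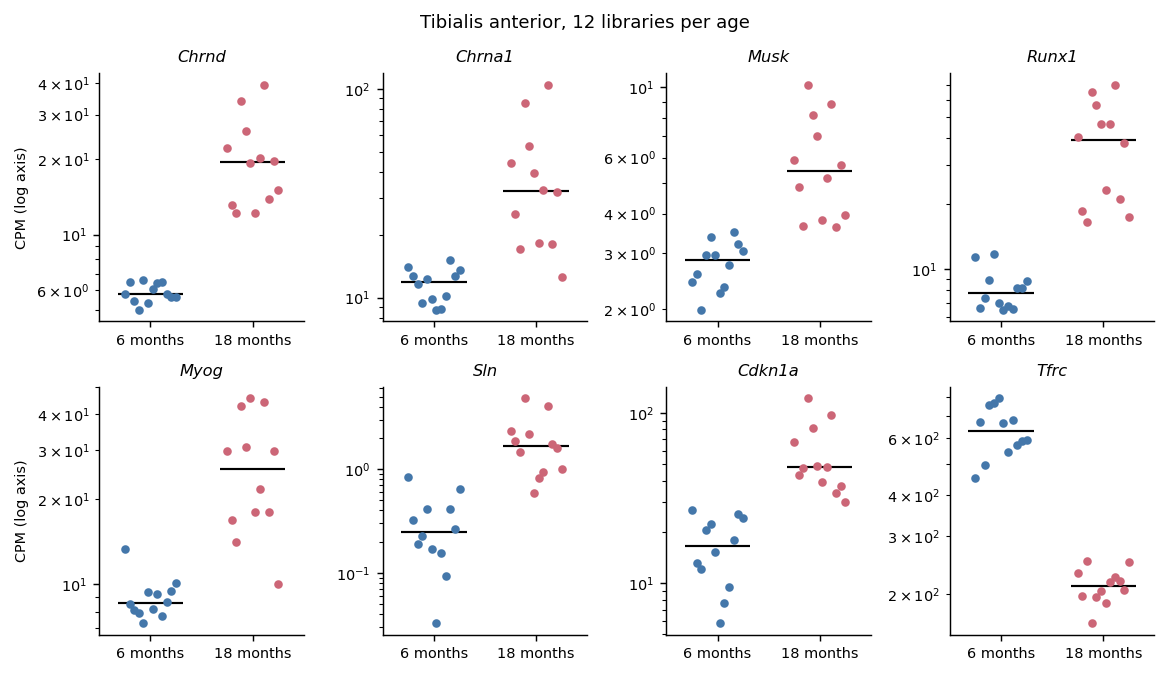
Each panel gives CPM on a log axis for 1 gene in the 12 libraries of 6 months and the 12 of 18 months, with a bar at the median. Chrnd, Musk, Runx1 and Cdkn1a at 18 months lie wholly above 6 months, Tfrc wholly below, and Chrna1, Myog and Sln overlap in 1 or 2 libraries.

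The 18-month rats differed in how far this went. When the 12 libraries were ranked from 1 (lowest) to 12 for each of the 14 called genes of these 2 lists, replicates 8 and 3 had the highest mean rank (11.4 and 11) and replicates 2, 11 and 9 the lowest (2.29, 3.21 and 3.36). Runx1, itself among the 14 ranked genes, was at 70.4 and 65.0 CPM in replicates 8 and 3. In replicates 2, 11 and 9 it was at 16.4, 17.4 and 21.0 CPM. Even those lowest libraries were above the highest 6-month library, at 11.8 CPM. The order did not follow the axis score, which was -1.69 and -2.93 in replicates 8 and 3 and -2.60, -0.01 and -2.21 in replicates 2, 11 and 9. Without the 7 libraries of low axis score 1 of the 22 junction genes and 6 of the 26 denervation genes passed, and without those rich in Alb 1 and 4. Replicate 11 made no such difference to the denervation list, where 11 genes passed without it.

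Before 18 months these genes were at their 6-month level. The median of Chrnd was 5.93 CPM at 9 months and 6.36 at 12 months, and of Runx1 8.61 and 8.85. After 18 months they climbed further, with medians at 21, 24 and 27 months of 28.1, 94.7 and 187 CPM for Chrnd, of 52.5, 173 and 295 CPM for Runx1, and of 74.7, 272 and 632 CPM for Cdkn1a. Of the ages measured, 18 months was the first at which the median of Chrnd, Runx1 or Cdkn1a lay above every library of 6 months. Musk followed the same course, at 2.51, 2.46, 8.45, 25.7 and 40.6 CPM at 9, 12, 21, 24 and 27 months.

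**Figure D3:**
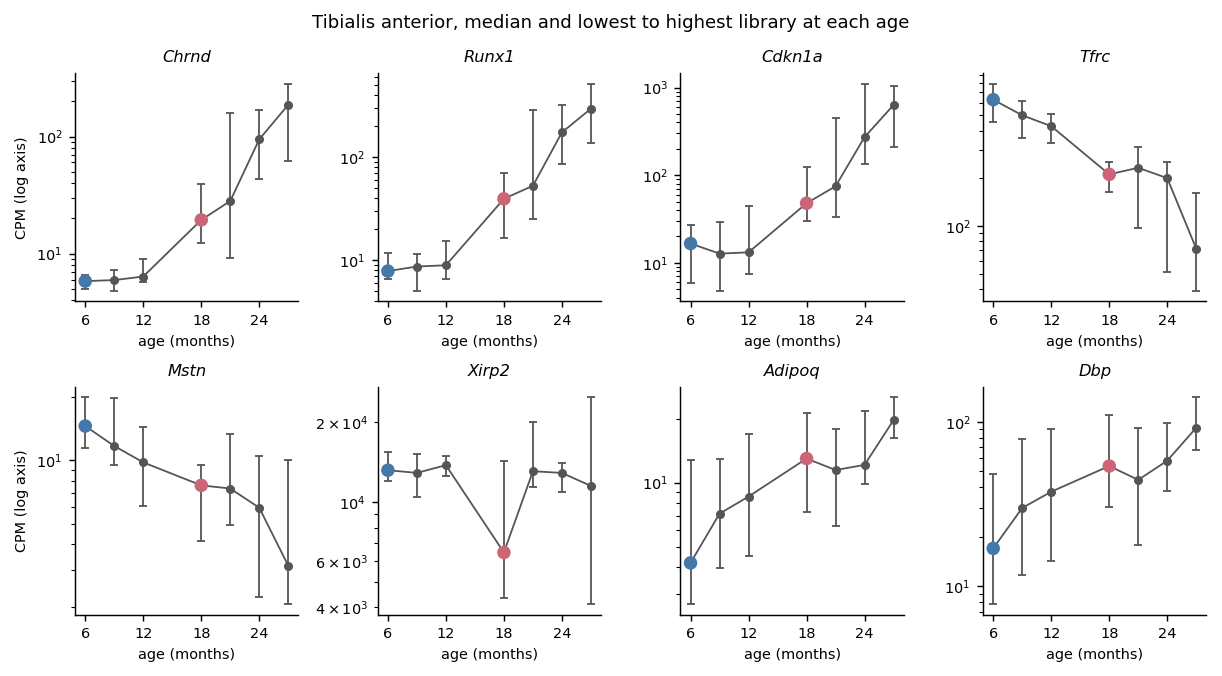
For 8 genes, points give the median CPM of the tibialis anterior libraries at each age in months (horizontal axis), and bars run from the lowest to the highest library, on a log axis. Chrnd, Runx1 and Cdkn1a are flat to 12 months and climb from 18 months on, Tfrc declines, and Xirp2 is low at 18 months and back near its 6-month level at 21 and 24 months.

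Several of the largest rises outside the lists were genes of fibre remodelling and metabolism. Tubb6, a tubulin of regenerating and denervated fibres, went from 4.27 to 14.98 CPM (median 8.73) to 15.8 to 60.9 CPM (median 35.8), without overlap (log2 change 1.95 ± 0.24, adjusted p = 2.29e-09). Ampd3, an AMP deaminase, went from 11.7 to 16.8 CPM (median 13.8) to 21.5 to 94.4 CPM (median 49.4), also without overlap (log2 change 1.84 ± 0.22, adjusted p = 2.17e-09). Scd1, the desaturase that makes oleic acid, went from 5.39 to 13.3 CPM (median 7.16) to 20.1 to 58.3 CPM (median 37.0), again without overlap (log2 change 2.03 ± 0.39, adjusted p = 2.19e-05). The others among the 12 largest rises of genes above 1 CPM were C3 (2.84), described with complement, Runx1 (2.07), Cyp1a1, a dioxin-inducible oxidase (2.38), the bile acid transporter subunit Slc51a (1.96), the clock gene Ciart (1.90), and Flrt1 (1.92), Ctxn3 (1.87), Prrt4 (1.86) and Chrnd. Rrad, a small GTPase that curbs calcium channels, rose by 1.72 ± 0.28 (adjusted p = 8.58e-07).

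Of the falls in genes above 1 CPM, that of the transferrin receptor Tfrc, by which cells take up iron, was the largest. It had 451 to 794 CPM at 6 months (median 628) and 163 to 253 at 18 months (median 212), so that the ages did not overlap and the log2 change was -1.56 ± 0.18 (adjusted p = 4.10e-10). Its medians were 501 CPM at 9 months and 427 at 12 months, where it did not pass against 6 months, and 233, 200 and 71.8 at 21, 24 and 27 months. Npr3, the clearance receptor for natriuretic peptides, fell by 1.17 on the log2 scale (13.1 to 20.3 CPM against 6.03 to 10.03, adjusted p = 1.86e-12). Mstn, myostatin, the secreted brake on muscle growth, had 11.4 to 20.0 CPM at 6 months (median 14.5) and 4.14 to 9.44 at 18 months (median 7.59), with no overlap and a log2 change of -1.03 ± 0.16 (adjusted p = 3.60e-07). Also without overlap were Mum1l1 (-1.06) and the syntrophin Sntb1 of the dystrophin complex (-0.94). Esm1, a secreted product of endothelium, was at 8.98 to 18.9 CPM at 6 months and at 4.34 to 10.3 at 18 months (log2 change -0.94 ± 0.15, adjusted p = 5.18e-07), and Klhl4 (-0.94), Dcx (-0.92) and Lrat, which stores vitamin A as ester (-0.90), complete the 12 largest falls together with Cep290, Zfp40 and Smc4, given further on. Irs1, the adaptor of the insulin and Igf receptors, fell by 0.70 on the log2 scale (292 to 581 CPM against 202 to 337) and was the single called gene of 30 in the growth hormone and Igf list. In a fit with the axis score as a covariate, Tfrc (-1.65), Npr3 (-1.05), Mstn (-0.86), Mum1l1 (-0.79) and Sntb1 (-0.71) still passed.

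A second set of falls moved with the axis score. Xirp2, a sarcomere repeat protein of the Z-disc, was at 12045 to 15424 CPM at 6 months and at 4332 to 14305 at 18 months, with replicates 0, 11 and 1 at 14305, 13116 and 10564 CPM and the libraries of low score between 4332 and 7094. Trdn, triadin of the calcium release unit (-0.85), and the actin-binding Nexn (-0.84) had the same layout, as did Smc4, a condensin subunit (-0.94), and the centrosome gene Cep290 (-1.15). Xirp2 and Nexn were named here after their values were seen. With the axis score as a covariate the log2 change was -0.44 for Cep290 (adjusted p = 0.066), -0.31 for Smc4, -0.24 for Trdn and -0.24 for the zinc finger gene Zfp40 (-0.95 without the covariate). Over the 158 fallen genes the median log2 change was -0.38 under the covariate and 45 still passed. The Y-linked Eif2s3y, a housekeeping translation factor, was at 33.7 to 44.5 CPM in the 7 libraries of low score, at 46.9 to 52.1 in the other 5 of 18 months and at 53.5 to 61.2 at 6 months, although all rats were male. The ribosomal transcript Rn45s was at 4032 to 6582 CPM in the 7 libraries, at 3806 to 5152 in the other 5 and at 2341 to 4345 at 6 months. The part of the library axis in these falls was not tested further.

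Contractile genes of adult fibre types gave 3 calls. Among 16 slow-fibre genes the troponins Tnnt1 (68.7 to 157 CPM against 138 to 248, log2 change 0.82) and Tnni1 (0.65) rose, and the slow myosin Myh7 did not pass (1259 to 2962 CPM against 2324 to 3761, log2 difference 0.66 ± 0.32, adjusted p = 0.0995). Among 19 fast-fibre genes the single call was Myh2, the myosin of fast oxidative fibres, at 4565 to 7333 CPM and then 2343 to 6244 (log2 change -0.64, adjusted p = 0.00254). Myh4, the main myosin of the muscle, differed by -0.13 ± 0.19 (adjusted p = 0.609). Genes of protein breakdown did not follow those of denervation. Of 26 ubiquitin ligases and Foxo-linked genes 0 rose by limma-voom, edgeR or DESeq2, and the single fall was Mstn. At an unadjusted p under 0.05, 7 of the 26 were higher, against 2703 of all 11754 genes tested. Trim63 was at 134 to 178 CPM and then 111 to 223 (log2 difference 0.02), and Fbxo32 differed by 0.05.

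Immune genes rose in many groups at once, and part of these calls was lost when the libraries that stand apart were left out. Of 23 complement genes 13 rose (list median 0.61). C4b, the fourth component, was at 15.2 to 35.1 CPM at 6 months (median 21.4) and at 35.4 to 102 at 18 months (median 44.2), without overlap (log2 change 1.26 ± 0.19, adjusted p = 4.22e-07), and reads of its near copy C4a (1.31) may be shared with it. C3, the hub of the cascade, was at 0.379 to 1.26 CPM (median 0.858) and then 1.64 to 24.6 (median 5.77), a log2 change of 2.84 ± 0.64 (adjusted p = 0.000283). Liver makes most plasma C3, and C3 is counted in the liver list too. It was highest in replicate 4, the library with the most Alb. In replicate 7, with the least Alb, it was at 1.64 CPM, still above the 6-month range. At 24 months, with Alb up to 0.109 CPM, C3 was at 1.08 to 6.39 CPM (median 2.17). The part of liver transcripts in the rise of C3 was not tested. Factor D (Cfd, 1.07), C2 (0.96), and the 3 chains of C1q (C1qa 0.83, C1qb 0.74, C1qc 0.73), which macrophages make, also rose. In the 4 libraries poor in Alb 5 complement genes passed, among them C4b (1.13, adjusted p = 0.0026) but not C3 (1.58, adjusted p = 0.231).

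Of the liver list, all 14 tested members (of 17) passed, with a summed level of 14.0 to 19.5 CPM at 6 months and 21.7 to 344 at 18 months. The 4 genes without a count at 6 months entered the test only through libraries of other ages. The share that passed was therefore partly fixed by the filter on low counts. The median fitted log2 change was 4.36, and 5.69 with the 4 genes that had no count at 6 months set to a bound of 3 counts over that age. Fgb, a fibrinogen chain, was one of these, with 0 counts in all 12 libraries of 6 months and up to 2.46 CPM at 18 months. Among the 4 libraries poor in Alb 0 liver genes passed in limma-voom. Those libraries were chosen by Alb, itself a member of the list, so the choice largely set this count. Whether the liver transcripts were made in the muscle or came with it was not tested.

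Macrophage markers rose in 13 of 24 tested (list median 0.63), with a summed level of 87.7 to 152 CPM at 6 months and 134 to 375 at 18 months. Gpnmb, a lysosomal glycoprotein of lipid-laden macrophages, had 7.23 to 18.4 CPM and then 14.8 to 88.3 (log2 change 1.49 ± 0.29, adjusted p = 3.05e-05), and Lyz2, lysozyme, 22.9 to 46.9 and then 39.9 to 127 CPM (0.74 ± 0.16, adjusted p = 0.000191). Mrc1, a marker of resident macrophages, missed the fold threshold (0.48, adjusted p = 0.023). Without replicate 11 macrophage calls numbered 5, without the libraries rich in Alb 2, and without those of low axis score 18.

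Antigen presentation and interferon genes had the same dependence. Cd74 rose by 0.74 ± 0.16 (36.0 to 62.9 CPM against 49.8 to 255, adjusted p = 0.000147), and 5 of 10 MHC class II genes passed (median 0.71), 3 of them without replicate 11. The RT1 genes of this list share sequence, so that reads may be split between them. Of 56 interferon-response genes 12 rose (median 0.32), led by the chemokine Cxcl11 (2.23), the immunoproteasome subunit Psmb8 (0.73) and the peptide transporter Tap1 (0.69). Without replicate 11 the count was 7, without the libraries rich in Alb 2, and without those of low axis score 20. T-cell markers rose in 5 of 13 tested, among them the kinase Zap70 (1.52) and Cd2 (1.01), while the receptor chains Cd3d, Cd3e and Cd3g were too low to test. Among 39 chemokines and cytokines 8 rose and 1 fell (Tnfrsf12a, the Tweak receptor, -0.59), with 3 of the rises left without replicate 11. Of 10 neutrophil and mast cell markers 4 rose, among them the mast cell chymase Cma1 (0.81) and S100a9 (1.18).

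Of 14 tested markers of fat cells 8 rose (list median 0.84). The summed level of the list was 1159 to 1341 CPM at 6 months (median 1279) and 1188 to 1527 at 18 months (median 1326). Adipoq and Plin1 were a small part of it, with 6-month medians of 4.18 and 2.27 CPM. The list shares Gpd1 with the fast-fibre list, so the sum is not a measure of fat cells alone. Adipoq, adiponectin, had 2.67 to 12.8 CPM at 6 months (median 4.18) and 7.29 to 21.3 at 18 months (median 13.0), so that the ages overlapped in 6 libraries of 18 months (log2 change 1.44 ± 0.21, adjusted p = 8.30e-08). The lipid droplet coat Plin1 (1.29), its partner Cidec (1.10), leptin (Lep, 1.70) and Tusc5 (0.75) rose with it. Fabp4 (-0.11), which endothelium also makes, and the fat cell regulator Pparg (0.12) did not pass. Without the libraries rich in Alb 7 passed, and without those of low axis score 6. In the wider list of lipid storage and synthesis 4 of 35 genes rose, among them Scd1 and Thrsp (1.09), and 3 fell, among them the lipase Pnpla3 (-0.86) and Sqle of cholesterol synthesis (-0.64).

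Of the clock genes, 2 of each direction passed. Dbp, an output of the clock, had 7.78 to 48.4 CPM (median 17.0) at 6 months and 30.2 to 111 (median 53.9) at 18 months (log2 change 1.63 ± 0.25, adjusted p = 4.97e-07), and Ciart, a repressor, rose too (1.90). Arntl, the activator also called Bmal1, had 42.6 to 62.6 CPM and then 19.1 to 45.4 (log2 change -0.79 ± 0.15, adjusted p = 1.54e-05), and Nfil3, which opposes Dbp, fell by 0.82. Over the list 2 of 16 rose and 2 fell (median 0.26). Without the libraries rich in Alb, Dbp alone passed (1.06, adjusted p = 0.037), with Ciart at 0.95 (adjusted p = 0.356), Arntl at -0.42 (adjusted p = 0.197) and Nfil3 at -0.55 (adjusted p = 0.131), while all 4 passed without those of low axis score. In all libraries, Nr1d1 (0.53, adjusted p = 0.00123) and Per1 (0.51, adjusted p = 0.048) fell short of 1.5-fold, which log2 writes as 0.58. Each age was collected on its own day in the same window from morning to midday, and the hour of each library is not in the labels, so time of collection and age cannot be told apart.

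Other lists gave a few calls each, to be read beside the 4.11% of all genes tested that were higher and the 1.34% that were lower. Of 38 genes of metals and oxidants Hmox1, heme oxygenase (2.84 to 4.91 CPM against 4.98 to 16.1, log2 change 1.35 ± 0.23), Gsta1 (0.79), Mt1a (1.76) and Mt3 (0.85) rose and Tfrc fell. Among 30 genes of myostatin, activin and Bmp signalling, 4 rose, among them Ltbp1 (0.71), Bmp7 (0.81) and the Bmp antagonist Chrd (0.79), and Mstn fell. Among 33 ion channels 5 rose and 1 fell, the fast potassium channel Kcnc1 (-0.83), and in calcium handling Sln rose and Trdn fell among 31. Matrix genes gave few calls. Of 16 collagens 1 fell, Col1a1 (165 to 409 CPM against 129 to 362, log2 change -0.66, adjusted p = 0.0105), with Col1a2 at -0.55 (adjusted p = 0.0152). Below the threshold the collagens leaned downward, with a list median of -0.17. At an unadjusted p under 0.05 there were 9 of the 16, of which 1 was higher, against 43.8% of all genes tested. Of 42 other matrix genes Loxl1 (0.75) and P4ha3 (1.16) rose and the fibrillin Fbn2 fell (-0.61). The fibroblast list had 1 rise of 16, Pi16 (0.96), the tendon and cartilage list 1 rise and 2 falls of 14, and the Schwann cell list 2 rises of 15, S100b (0.90) and Gldn (0.63).

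Of 20 cell cycle inhibitors and p53 targets Cdkn1a and Cdkn2b (0.87) rose, of 27 satellite cell genes Myog alone, of 15 polyamine genes Sat1 (0.83) and Arg1 (1.39), and of 27 immediate early genes Junb (0.76), Maff (0.73) and Fosl1 (1.09). In the integrated stress response Phgdh (0.71) and Slc7a5 (0.74) rose and the glutathione-degrading Chac1 fell (-0.74) among 41, and of 45 chaperones Chordc1 fell (-0.62). Fuel genes gave Pdk4 (0.73), the brake on pyruvate oxidation, among 25 of the citric acid cycle, and Ucp2 (0.65) and Cpt1a (0.62) among 43 of fatty acid oxidation. The shares of rises in the fuel, stress response and satellite cell lists lie near the 4.11% of all genes tested. Of 9 red cell genes Slc4a1 rose (0.71).

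Many of the calls in these smaller groups were not made in the subsets. The rises of developmental sarcomere genes went from 3 to 1 in both, without the libraries of low axis score and without those rich in Alb. Those of slow-fibre genes went from 2 to 0 in both, of ion channels from 5 to 1 in both, of immediate early genes from 3 to 1 in both, and of the myostatin, activin and Bmp list from 4 to 1 and 0. The fall of Myh2 passed in neither, and Mstn fell in both. Of the 5 T-cell rises 3 still passed without the libraries of low axis score and 0 without those rich in Alb. Of the 4 neutrophil and mast cell rises, 3 and 0 did. The metal and oxidant list had 2 rises in each and the stress response list 0, and the fall of Col1a1 and the rises of Pdk4 and Slc4a1 passed in neither.

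The respiratory chain, glycolysis and protein turnover machinery gave 0 calls in limma-voom, edgeR and DESeq2 alike. Over all genes tested, 5146 (43.8%) had an unadjusted p under 0.05. Among these lists there were 13 of 74 genes of oxidative phosphorylation (1 higher), 10 of 39 of glycolysis and glycogen, 21 of 63 of the mitochondrial ribosome and 18 of 37 of the proteasome. Their list medians were -0.01, 0.03, 0.02 and 0.05 on the log2 scale. The lists of proliferation (8 of 24 at an unadjusted p under 0.05), endothelium (9 of 19, 0 higher) and pericytes and smooth muscle (6 of 15) also gave 0 calls in the 3 tools. The B-cell list had 1 tested gene and the skin list 5, with 0 calls in limma-voom and 0 at an unadjusted p under 0.05; edgeR and DESeq2 each called 1 skin gene.

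**Figure D4:**
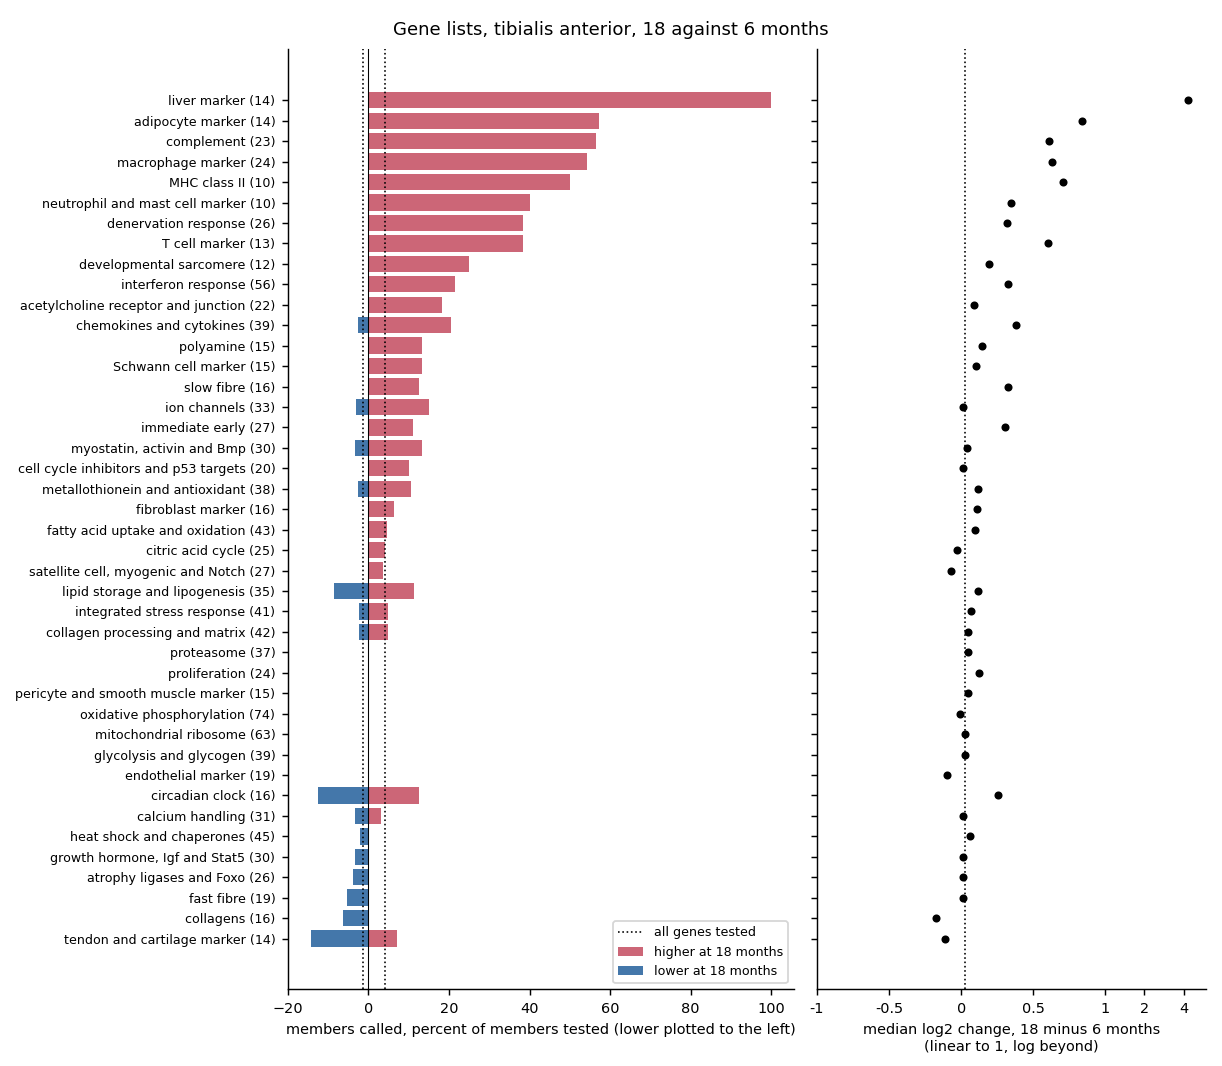
For each list with at least 10 tested genes, bars give the percent of its genes higher or lower at 18 months and points the median log2 change, with dotted lines for all 11754 genes. Liver, complement, adipocyte and macrophage markers have the largest shares of rises, and the lists of energy metabolism lie near 0.

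A comparison of 21 with 9 months in the same muscle shares no library with the one described, though both use the same pooled spread. There 399 genes were higher (3.39% of those tested) and 92 lower (0.783%). Of the 483 genes higher at 18 months 179 (37.1%) were also higher at 21 against 9 months and 4 were lower, and 436 had the same sign, with a median log2 change of 0.59. Of the 158 lower genes 24 (15.2%) were also lower and 1 was higher, and the median was -0.14. Chrnd (2.41, adjusted p = 1.19e-09), Chrna1 (2.77, adjusted p = 2.16e-09), Musk (1.97, adjusted p = 4.14e-06), Runx1 (2.85, adjusted p = 2.42e-13) and Myog (2.05, adjusted p = 1.82e-10) were among the genes higher again. In all, 4 junction genes were higher and 0 lower at 21 against 9 months by limma-voom, while 12 denervation genes were higher and 3 lower. Those 3, of which Ucn2 and Aldh1l2 were named after their values were seen, were Cish (-2.47), Ucn2 (-0.79) and Aldh1l2 (-0.60).

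Of the genes higher in both comparisons, the 5 with the largest change at 18 months were Fgb, Mat1a, Hpx, Hnf4a and Chrng. The first 4 are genes of liver, and Alb reached 279 CPM at 21 months in 1 library. Chrng gave 4.56 at 21 against 9 months (adjusted p = 0.00233). Tfrc fell by 1.17 in that comparison (adjusted p = 5.44e-07). The 5 genes that went the opposite way were Crabp1 (0.88 at 18 against 6 months, -0.98 at 21 against 9), Lmx1a (0.69 and -0.89), Ubxn10 (0.68 and -0.88), Accsl (-0.64 and 0.98) and Smpd3 (0.63 and -0.63).

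The change from 6 to 18 months was then set against the same change in the other muscles, by a test of the difference itself over 12784 genes in all libraries of the series. It differed from that of soleus in 124 genes (0.970%), with 81 more positive in tibialis anterior and 43 more negative, from that of diaphragm in 15 (0.117%), with 12 and 3, and from that of gastrocnemius in 174 (1.36%), with 8 and 166. Runx1 changed by 2.06 in tibialis anterior on this fit, 0.17 in soleus, 0.33 in diaphragm and 1.80 in gastrocnemius, and the first differed from soleus (adjusted p = 0.00046) and diaphragm (adjusted p = 0.025). Myog gave 1.42, 0.08, 0.07 and 1.11 in the same order, and differed from soleus (adjusted p = 0.000416) and diaphragm (adjusted p = 0.00726). Chrna1 gave 1.52, -0.01, 0.25 and 2.05, with a difference from soleus (adjusted p = 0.0105).

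Chrnd did not separate the muscles, at 1.68, 1.08, 0.95 and 1.505 (adjusted p of the difference 0.239, 0.389 and 0.809). Cdkn1a gave 1.81, 1.18, 0.54 and 1.98, Tfrc -1.57, -1.05, -1.15 and -1.23, and Dbp 1.62, 1.39, 1.82 and 1.21. Xirp2 was lower in tibialis anterior (-0.87), soleus (-0.72) and diaphragm (-0.74) and stood at 0.08 in gastrocnemius, from which tibialis anterior differed (adjusted p = 0.0321). In the labels' description field the running numbers of the gastrocnemius libraries form a range apart from that of the other muscles, so that muscle and series of libraries cannot be told apart there. Macrophage markers had 3 of 24 with a more positive change in tibialis anterior than in soleus, Lyz2, Laptm5 and Gpnmb. Over all 12784 genes 81 were more positive than in soleus. Against diaphragm and against gastrocnemius 0 of the 24 differed. The list median on this fit was 0.62 in tibialis anterior, 0.05 in soleus, 0.32 in diaphragm and 0.66 in gastrocnemius.

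**Figure D5:**
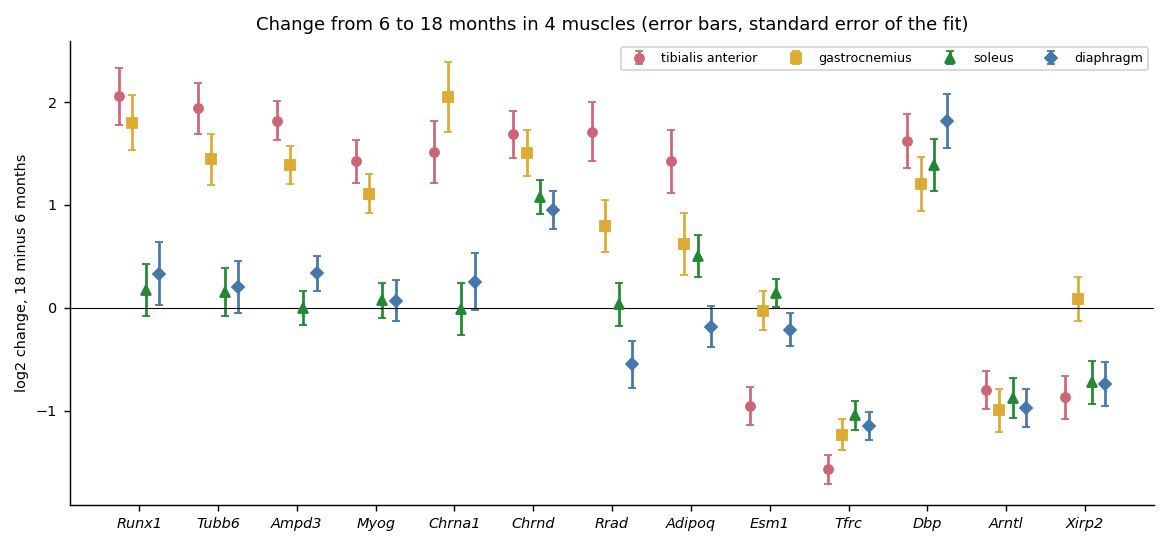
Points give the log2 change from 6 to 18 months and bars its standard error for 13 genes in tibialis anterior, soleus, diaphragm and gastrocnemius, from 1 fit to all libraries. Runx1, Tubb6, Ampd3, Myog and Chrna1 lie near 0 in soleus and well above 0 in both tibialis anterior and gastrocnemius, while Tfrc and Dbp lie on the same side of 0 in all 4 muscles.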

How the data were processed

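Total RNA of rat tibialis anterior was sequenced by the authors as strand-specific, paired libraries after removal of ribosomal RNA, aligned to an older rat build (B6.0) and counted per gene on an in-house RefSeq-based gene model with the ArrayStudio pipeline. The deposited files hold raw counts, 1 file per library, with 17870 lines for 17315 symbols and no line without a gene name. Lines of one symbol were summed (494 symbols, 2.34% of counts). Every file belonged to a labelled sample.

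Counts of the 85 tibialis anterior libraries of 7 ages were fitted together with limma-voom (limma 3.58.1, edgeR 4.0.16 for TMM scaling and filterByExpr with a minimum count of 10, R 4.3.3), with age as the one term, so that the spread is pooled over ages. The contrast was 18 minus 6 months (12 libraries each, 28075100 to 66121880 counts). Values after ± are standard errors, tests are two-sided, p-values are Benjamini-Hochberg adjusted over the 11754 genes tested, and a call needs an adjusted p under 0.05 and more than 1.5-fold. The study's methods name limma and a 1.5-fold threshold. They adjust by Bonferroni, tried here as an alternative. CPM values used the TMM-scaled library sizes. The difference between muscles was an interaction contrast in all libraries of the series. edgeR's quasi-likelihood test and DESeq2 1.42.0 were alternatives. The fit was tested on simulated data.

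The library axis is the first principal component of the within-age spread of the gastrocnemius libraries, scored in tibialis anterior. Named are the 12 largest rises and 12 largest falls above a mean of 1 CPM, up to 6 called and 4 defining members of each of 45 lists, the 4 largest differences per other muscle and the 5 largest of the 21 against 9 month overlap in each direction. The members and lists were chosen with earlier results of these data known. Promoters came from RefSeq (GRCr8), matched by symbol. A few genes are not reported here by name.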

Additional observations from a re-analysis of the deposited data

Results flagged for a closer look

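The change from 6 to 18 months differed between muscles, by the interaction test, in the genes given here, which are the 4 largest differences for each other muscle. Against soleus, tibialis anterior changed more in Runx1 by 1.88 on the log2 scale (adjusted p = 0.00046), in Ampd3 by 1.82 (adjusted p = 2.31e-08), in Tdrkh, a germ-line RNA factor, by 1.79 (adjusted p = 0.000108) and in Tubb6 by 1.79 (adjusted p = 0.000241). The changes in soleus itself were 0.17 for Runx1, -0.00 for Ampd3 and 0.15 for Tubb6.

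Against diaphragm the differences were 2.26 for Rrad (adjusted p = 2.5e-05), 1.74 for Tubb6 (adjusted p = 0.00442), 1.73 for Runx1 (adjusted p = 0.025) and 1.61 for Adipoq (adjusted p = 0.0165). In diaphragm itself Runx1 changed by 0.33 and Tubb6 by 0.20.

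Against gastrocnemius they were 1.17 for Fanca (adjusted p = 0.00632), -1.13 for Cep290 (adjusted p = 0.0451), -1.09 for Zfp40 (adjusted p = 0.00508) and 1.07 for Tox2 (adjusted p = 0.0152). Cep290 and Zfp40 are among the genes that were low in the 18-month tibialis anterior libraries of low axis score, and the part of the library axis in their difference was not tested.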

How the results depend on the processing

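The numbers of genes called, higher and lower at 18 months were 641, 483 and 158. A Bonferroni adjustment gave 188, 91 and 97, a 2-fold threshold 237, 222 and 15, and no fold threshold 4144, 2068 and 2076. With the library axis as covariate 78 genes were lower. In 2 subsets chosen after seeing the data, 38 were lower without the libraries of low axis score, and 278, 190 and 88 were called, higher and lower without those with Alb over 10 CPM. Leaving out each library in turn gave 585 to 685 called, 417 to 507 higher and 133 to 192 lower. The lowest number of rises came without replicate 11 of 18 months. edgeR called 711 and DESeq2 730. The muscle differences moved most: soleus, 124 genes, went to 306 in edgeR, 26 by Bonferroni and 234 in a fit of those groups only; diaphragm, 15, to 106, 6 and 66; gastrocnemius, 174, to 103, 4 and 15. Genes called the same way at 21 against 9 months went from 203 to 41 by Bonferroni, and those called the opposite way from 5 to 0, or to 3 under total-count scaling. Where no construction of the setting shows it, the cause was not tested.

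Libraries of 6 and 18 months share replicate numbers, but the numbers did not pair them: over 12 pairs the correlation of deviations ran from -0.26 to 0.28 (median 0.02, 4 over 0.1), and 2 of 12 libraries correlated best with their own number. With the replicate number as a further term, 719 genes were called, 561 higher and 158 lower. The muscle differences used another block, in which libraries of 1 age with the same number were treated as correlated across muscles. The labels do not say whether such libraries come from the same rat. That correlation was 0.066, and the differences from soleus, diaphragm and gastrocnemius numbered 147, 25 and 179.

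Of 150 named genes that were called, 31 were called under every alternative other than the 2 subsets and 116 in every fit that left out a library. Depth limits the precision of the 259 rises with a mean of 1 CPM or less.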

Other observations

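Cd1d1, a lipid-presenting molecule named after its values were seen, fell into separate clusters of libraries. At 6 months 6 libraries had 5.14 to 6.42 CPM and 6 had 51.1 to 121, and at 18 months replicate 11 had 7.84 CPM while the other 11 had 47.6 to 133. Libraries under 10 CPM numbered 2 at 9 months, 2 at 12 months, 2 of 13 at 21 months, 0 at 24 months and 2 at 27 months.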
